A study of Homo sapiens with 16 samples.

Results

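The 10 transcription factor genes that mark luminal breast epithelium, FOXA1, GATA3, TRPS1, XBP1, TFAP2A, TFAP2B, TFAP2C, TBX3, TOX3 and ZNF703, were followed in a breast and an endometrial cancer cell line exposed to estrogen receptor ligands. They were picked by gene symbol alone, 10 of the 21453 symbols in the tables and 16 of the 32062 transcript rows. Of the 10 genes, 8 reached at least 1 RPKM in at least 2 libraries and were tested. TFAP2B and TOX3 did not reach that level and are described by their values only.

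RNA-seq libraries were made from polyadenylated RNA of T-47D, a breast cancer line, and ECC-1, labelled as an endometrial cancer line, both of which carry estrogen receptor alpha (ESR1). Cells of every group had first spent 5 days without phenol red in RPMI-1640 that held 10% serum stripped with dextran and charcoal, which lowers steroid hormones. They were then exposed for 8 h to 10 nM 17β-estradiol, to 100 nM bisphenol A (BPA, a plastics monomer), to 100 nM genistein (a soy isoflavone) or to 0.02% DMSO, the vehicle. The 8 groups, a line and a treatment each, have 2 libraries apiece, 16 in all. The labels do not say whether these came from separate cultures, so p-values measure the spread between these libraries, which may be technical. Each line stands for its tissue as a single line, and estradiol was given at a different concentration from the other 2 compounds.

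FOXA1 is a forkhead protein that opens chromatin for the estrogen receptor in breast cells, and GATA3 is a zinc finger factor needed to form and keep the luminal lineage. TRPS1 is an unusual GATA family member that represses transcription, and the AP-2 proteins encoded by TFAP2A, TFAP2B and TFAP2C bind many sites used by the receptor. XBP1 encodes a leucine zipper factor whose mRNA is spliced by the stress sensor ERN1 (IRE1) to drive the unfolded protein response. TBX3 is a T-box repressor of mammary development, TOX3 an HMG-box protein tied to breast cancer risk, and ZNF703 a repressor in luminal tumours. Levels below are in scaled RPKM, reads per kilobase of transcript and per M reads after division by a factor for each library, and so may be compared between genes. Differences are log2 differences of scaled RPKM + 0.5 from a limma fit over all 16 libraries and 13827 genes, with 95% intervals. A gene is called at a Benjamini-Hochberg adjusted p under 0.05, and for genes near 0 the pseudocount shrinks the difference.

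The estimated depth was 17.2 to 29.18 M reads per library, and no 2 libraries were identical. Most but not all tissue markers went with the labels. SPDEF, a luminal ETS factor, ran from 150.5 to 211.7 over the T-47D libraries and from 0.0693 to 0.543 over those of ECC-1, and PAX8, a Mullerian epithelium factor, from 0 to 0.0311 and from 66.5 to 98.4. The summed level of 8 basal breast markers was 13.5 to 23.4 for T-47D and 167 to 268 for ECC-1, where KRT5 and KRT17 made up most of it. The summed level of 16 luminal markers was 5336 to 9261 for T-47D and 2520 to 4092 for ECC-1, and the keratins KRT8, KRT18 and KRT19 made up most of it. Between the controls 11 of the 16 were called higher in T-47D (background 39.6% called higher), none was called lower and 5 were not called. Those 5 all had higher control means in ECC-1, KRT8 (2232 against 1989) and KRT18 (1555 against 1174) among them. Against the labels, the Mullerian marker MSX2 and the basal markers EGFR and VIM were higher in the T-47D controls (log2 differences 6.69, 1.04 and 1.49). Of 12 fibroblast, leukocyte and endothelial markers, 9 to 11 lay under 1 in every library. The first estradiol library of each line stood apart: its median correlation with the other libraries of its line was 0.980 in T-47D and 0.987 in ECC-1, against 0.989 to 0.997 for the others. In T-47D the difference between the 2 estradiol libraries correlated with GC content across genes at r = 0.68. Results on estradiol in T-47D are therefore also given without the first estradiol library of each line for XBP1, ZNF703, TFAP2A, TFAP2C, FOXA1 and TBX3. The same holds for some genes of other lists, and the remaining results on estradiol are given from all libraries. Leaving those 2 libraries out keeps 1 estradiol library per line. P-values of such fits hold no spread between estradiol libraries and are no added support. Fits that leave out a single library likewise hold no spread for its group. In bulk samples, fewer cells of a type and less RNA per cell cannot be told apart.

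The 10 genes spread over the whole range of expression in T-47D. XBP1 was the most abundant, with a median of 436.8 over the 8 T-47D libraries (305.0 to 805.5), and stood above 99.7% of all gene symbols by its mean. GATA3 followed at 292.7 (238.8 to 335.8). TRPS1 at 167.8 (126.6 to 192.0) and FOXA1 at 161.7 (104.4 to 172.0) came next and overlapped in range, as did TFAP2A at 37.1 (25.3 to 41.9) and TFAP2C at 29.03 (25.5 to 38.3). ZNF703 had a median of 10.2 (6.45 to 20.7) and TBX3 of 3.41 (2.43 to 3.69), near the middle of all symbols. TFAP2B and TOX3 were close to 0.

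In ECC-1 the order was different. XBP1 was again the most abundant with a median of 121.3 (109.3 to 126.8), above 97.4% of symbols, and ZNF703 came next at 9.69 (7.29 to 14.8). FOXA1 at 3.03 (2.86 to 3.57), TFAP2C at 2.48 (2.04 to 3.22) and TRPS1 at 2.39 (2.08 to 3.29) lay close together with overlapping ranges. TFAP2A stayed under 1 in all 8 libraries (0.719 to 0.980), and GATA3, TBX3, TFAP2B and TOX3 were at or near 0.

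**Figure D1:**
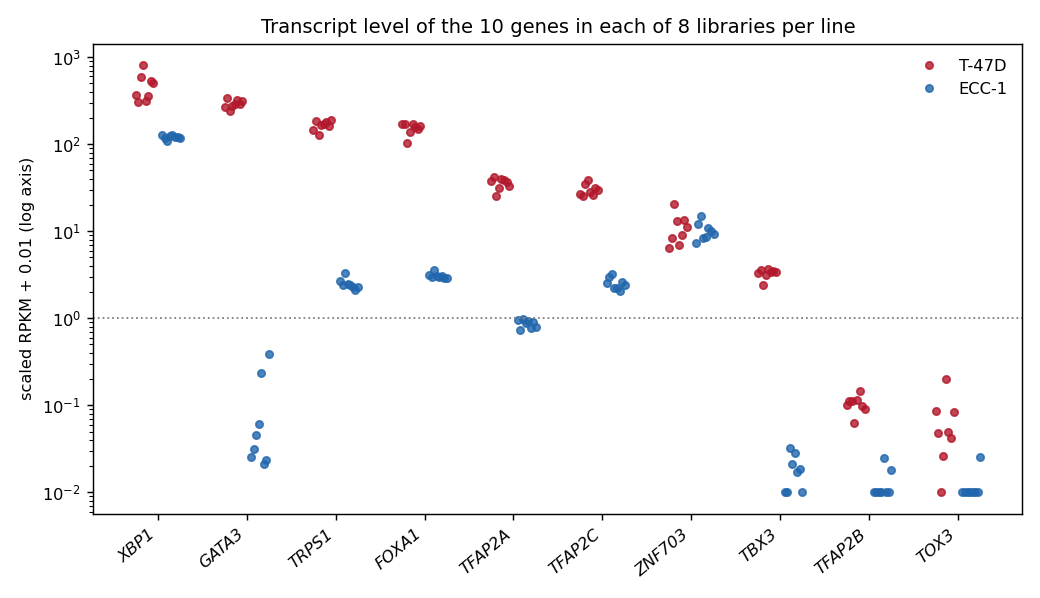
Scaled RPKM + 0.01 on a log axis for each of the 10 genes, with 1 point for each of the 8 T-47D and 8 ECC-1 libraries; the dotted line marks 1. The points of XBP1, GATA3, TRPS1, FOXA1, TFAP2A, TFAP2C, TBX3 and TFAP2B separate by line, those of ZNF703 mix between 6.45 and 20.7, and those of TOX3 lie at or near 0.

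The first comparison asks how far the 2 lines differ without an added ligand. In the DMSO libraries, 7 of the 8 tested genes were higher in T-47D and none was lower, against a background of 39.6% of all tested genes called higher and 76.7% called in either direction. GATA3, TBX3 and TFAP2A passed the filter on low values only through T-47D and so were bound to differ, and the list is one of luminal breast factors, so the count is no independent support for its name. The median log2 difference over the 8 genes was 3.98, against 0.04 over all tested genes.

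GATA3, TRPS1 and FOXA1 showed the widest fitted differences, on a scale where the pseudocount shrinks that of TBX3, which was at least 122-fold higher in T-47D. FOXA1 stood at 171.0 and 170.6 in the T-47D controls and at 3.11 and 3.01 in the ECC-1 controls, a log2 difference of 5.59 (SE 0.13, adjusted p = 1.07e-14). TRPS1 stood at 143.9 and 187.0 against 2.66 and 2.42 (5.76, SE 0.16, adjusted p = 8.54e-14). GATA3 stood at 264.7 and 335.8 in T-47D, from 20738 and 17890 estimated reads. In ECC-1 it stood at 0.0154 and 0.0214, which is 3 reads over both libraries, so its ratio of 16125 has a counting interval of 5518 to 78192. That interval holds only the counting error of the control libraries. Over all 8 libraries of each line the ratio of GATA3 means was 3108, below the interval. The libraries of the 2 lines did not overlap for any of the 7 genes called, as for 90.8% of all tested genes.

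GATA3 reads in ECC-1 were uneven. Of the 8 ECC-1 libraries, 6 held 1 to 3 estimated reads of GATA3, whereas the first BPA library held 16.3 reads (0.228) and the second genistein library 24.4 reads (0.375). PIP, a secreted luminal protein gene with 1096 to 4726 reads in every T-47D library, was listed at 0 in all 8 ECC-1 libraries, those 2 included. GATA3 held more reads in T-47D, 16395 to 20738. TFAP2B was above 0 in ECC-1 only in those 2 libraries, with 2.00 and 1.00 estimated reads. TOX3 was above 0 there only in the second genistein library, with 1.04 reads. The origin of these reads was not tested. The GATA3 reads of these 2 libraries widen the spread of that gene in the fit, which also sets its interval in T-47D.

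Among the AP-2 genes, TFAP2A and TFAP2C were higher in T-47D. TFAP2A stood at 37.5 and 41.9 in the T-47D controls against 0.943 and 0.719 in ECC-1 (log2 difference 4.92, SE 0.14, adjusted p = 8.73e-14). TFAP2C stood at 26.5 and 25.5 against 2.54 and 2.94 (3.04, SE 0.14, adjusted p = 3.15e-11). The third paralog, TFAP2B, held 6 to 14 estimated reads in each T-47D library (0.0524 to 0.138), was listed at 0 in 6 of 8 ECC-1 libraries and held at most 2 reads in the others.

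TBX3 stood at 3.34 and 3.62 in the T-47D controls and was listed at 0 in the ECC-1 controls. Against the level that 3 reads would give in ECC-1 (0.0235 to 0.0336), TBX3 was at least 122-fold higher in T-47D, and its fitted difference was 2.99 (adjusted p = 1.37e-11). All 8 ECC-1 libraries held fewer than 3 reads of it. TOX3 held 0 to 12.4 estimated reads in T-47D, with 5 of 8 libraries under 3 reads, and was listed at 0 in 7 of 8 ECC-1 libraries. Its means over 8 libraries were 0.0585 in T-47D and 0.0019 in ECC-1. These rest on few reads, and TOX3 was not tested for a difference between lines or treatments.

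XBP1 and ZNF703 were the 2 members with substantial transcript levels in ECC-1. XBP1 stood at 363.9 and 305.0 in the T-47D controls and at 126.1 and 118.8 in ECC-1, a 2.72-fold difference (log2 1.44, 95% interval 1.12 to 1.76, adjusted p = 3.53e-07). ZNF703 stood at 6.45 and 8.34 in T-47D and at 7.29 and 12.1 in ECC-1, and the lines overlapped (log2 difference -0.34, -0.92 to 0.25, adjusted p = 0.275). ZNF703 was the only tested member not called between the lines. ESR1 itself had control means of 31.4 ± 4.67 (T-47D) and 21.6 ± 2.93 (ECC-1) (log2 difference 0.53, adjusted p = 0.0131), against 5.59 for FOXA1, 9.17 for GATA3 and 5.76 for TRPS1.

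Relatives of the members were read from a list of 16 other genes of the same families, of which 7 were tested. Between the control libraries 5 were higher in T-47D and 1 was lower, which is near the background of 76.7% of all tested genes called. GATA6 stood at 2.71 ± 0.12 against 0.0889 ± 0.046 (log2 difference 2.45, adjusted p = 8.14e-11), and GATA2 at 8.45 ± 1.54 against 3.05 ± 0.56 (1.33, adjusted p = 4.90e-06). ZNF503, the paralog of ZNF703, stood at 2.39 ± 0.29 against 1.04 ± 0.18 (0.91, adjusted p = 0.00021). TOX, a relative of TOX3, was listed at 0 in both T-47D controls and stood at 1.08 ± 0.13 in ECC-1 (-1.66, adjusted p = 1.09e-08). In T-47D the GATA transcripts were thus ordered GATA3 and TRPS1, then GATA2, then GATA6, whereas in ECC-1 GATA2 and TRPS1 lay above GATA6 and GATA3.

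Promoter sequence was read where a window was at hand, and is printed for XBP1, FOXA1 and TFAP2A, whose estradiol and DMSO libraries in T-47D did not overlap. RefSeq promoter windows (GRCh38.p14) matched 5 of the 10 genes, FOXA1, GATA3, TFAP2A, TFAP2B and XBP1. The 250 bases before the start were searched on both strands, with capitals marking the matches. The motifs were the estrogen response element GGTCANNNTGACC, the forkhead motif TGTTTGC, the AP-2 motif GCCNNNGGC and the CCAAT box. Also searched was the hexamer AGGTCA, which adds a base before the GGTCA of that element. GGTCA alone was not searched. XBP1, at chr22:28800570-28800819 on the minus strand, holds 2 CCAAT boxes, which start 93 and 52 bases before the start on the gene's strand. FOXA1, at chr14:37595250-37595499 on the minus strand, holds 1 forkhead motif, which lies 235 bases before the start and reads GCAAACA on the gene's strand. TFAP2A, at chr6:10419660-10419909 on the minus strand, holds 1 AGGTCA hexamer, 11 bases before the start.
XBP1: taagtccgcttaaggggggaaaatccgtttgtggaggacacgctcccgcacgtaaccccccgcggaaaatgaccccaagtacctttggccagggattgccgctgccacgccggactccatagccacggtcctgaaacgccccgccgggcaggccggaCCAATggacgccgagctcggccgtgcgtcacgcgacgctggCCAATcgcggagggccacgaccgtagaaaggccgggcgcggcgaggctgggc
FOXA1: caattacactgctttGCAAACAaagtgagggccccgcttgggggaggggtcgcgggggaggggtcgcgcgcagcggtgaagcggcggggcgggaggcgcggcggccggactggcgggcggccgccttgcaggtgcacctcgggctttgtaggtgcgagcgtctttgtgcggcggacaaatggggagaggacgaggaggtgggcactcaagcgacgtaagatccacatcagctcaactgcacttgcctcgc
TFAP2A: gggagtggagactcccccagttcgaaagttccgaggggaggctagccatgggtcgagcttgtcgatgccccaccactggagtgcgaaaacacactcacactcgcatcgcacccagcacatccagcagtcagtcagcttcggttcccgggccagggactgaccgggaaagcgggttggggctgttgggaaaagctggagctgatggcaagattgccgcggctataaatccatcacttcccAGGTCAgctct
Over 35116 windows of the same length, 32.0% hold a CCAAT box, 3.23% the forkhead motif, 12.1% the hexamer, 19.8% the AP-2 motif and 0.0399% the full estrogen response element. The full element is in none of the 5 windows, and the GATA3 window holds 1 forkhead and 1 AP-2 motif. These are matches of letters and not measured binding sites.

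The second comparison asks which of the genes respond to each compound in T-47D. With estradiol, 2 of the 8 tested genes rose, XBP1 and ZNF703, and none fell, against a background of 3.22% of all tested genes called (2.1% higher). The estradiol and DMSO libraries did not overlap for 6 of the 8 genes, against 33.2% of all tested genes. Of these 6, XBP1, ZNF703 and TFAP2C lay higher with estradiol and FOXA1, TFAP2A and TBX3 lower. GATA3 and TRPS1 overlapped with their controls.

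XBP1 stood at 363.9 and 305.0 with DMSO and at 587.1 and 805.5 with estradiol. Both treated libraries lay well above both controls, and the means of 334.4 ± 41.6 and 696.3 ± 154 (SD, n = 2) differed 2.06-fold (log2 1.04, 95% interval 0.73 to 1.36, SE 0.15, adjusted p = 0.000688). Without the first estradiol library of each line, which leaves 1 estradiol library, the difference was 1.27. It was called in 14 of 15 alternatives and missed the threshold in the fit on T-47D alone (adjusted p = 0.0565). The 2 XBP1 transcripts in the tables, which share most of their sequence, gave log2 ratios of means of 1.06 and 1.04.

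ZNF703 stood at 6.45 and 8.34 with DMSO and at 20.7 and 13.2 with estradiol. The groups did not overlap, and the means of 7.40 ± 1.33 and 16.9 ± 5.32 differed 2.17-fold (log2 1.12, 0.53 to 1.70, SE 0.28, adjusted p = 0.0381). The higher of its 2 estradiol values is the library that stood apart: without the first estradiol libraries the difference was 0.80 (adjusted p = 0.104), and it was called in 8 of 15 alternatives. Leaving out 1 library ended the call for the first DMSO (0.94, adjusted p = 0.25), second DMSO (1.29, adjusted p = 0.12) and first estradiol library (0.80, adjusted p = 0.292). The call also ended with the replicate block (adjusted p = 0.0599), with no filter on low values (0.106) and in the fit on T-47D alone (0.12). The transcript of ZNF703 is 65.2% GC, more than in 93.1% of tested genes. With length and GC trends removed, a fit chosen after seeing the data, ZNF703 was called (adjusted p = 0.00337). The part of GC content in the difference was not tested.

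The AP-2 paralogs lay on opposite sides of their controls with estradiol, and neither was called. TFAP2C stood at 26.5 and 25.5 with DMSO and at 35.1 and 38.3 with estradiol (log2 difference 0.49, 0.18 to 0.79, adjusted p = 0.0904). TFAP2A stood at 37.5 and 41.9 with DMSO and at 25.3 and 31.0 with estradiol (-0.49, -0.79 to -0.19, adjusted p = 0.0772). TFAP2A was thus the more abundant of the pair in both controls and TFAP2C in both estradiol libraries. Without the first estradiol libraries the difference of TFAP2C was 0.55 and that of TFAP2A -0.35. Without the second estradiol library that of TFAP2A was -0.64.

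FOXA1 was close to the threshold on the low side. It stood at 171.0 and 170.6 with DMSO and at 104.4 and 139.0 with estradiol, and the groups did not overlap (log2 difference -0.50, -0.78 to -0.22, adjusted p = 0.0503). It was called in 4 of 15 alternatives. The difference was -0.71 without the second estradiol library and -0.30 without the first estradiol libraries. TBX3 stood at 3.34 and 3.62 with DMSO and at 2.43 and 3.12 with estradiol (-0.29, -0.57 to -0.01, adjusted p = 0.319). Its difference was -0.44 without the second estradiol library and -0.13 without the first estradiol libraries.

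GATA3 and TRPS1, the 2 GATA family members, were not shown to respond. GATA3 stood at 264.7 and 335.8 with DMSO and at 238.8 and 273.0 with estradiol (log2 difference -0.22, -0.67 to 0.23). TRPS1 stood at 143.9 and 187.0 with DMSO and at 126.6 and 166.1 with estradiol (-0.18, -0.53 to 0.17). Both intervals end below the lower bound of the XBP1 interval, 0.73. Of the untested pair, TFAP2B held 13.0 and 9.99 estimated reads with DMSO and 14.0 and 5.99 with estradiol, and TOX3 6.21 and 2.07 reads with DMSO and 0 and 1.03 with estradiol.

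**Figure D2:**
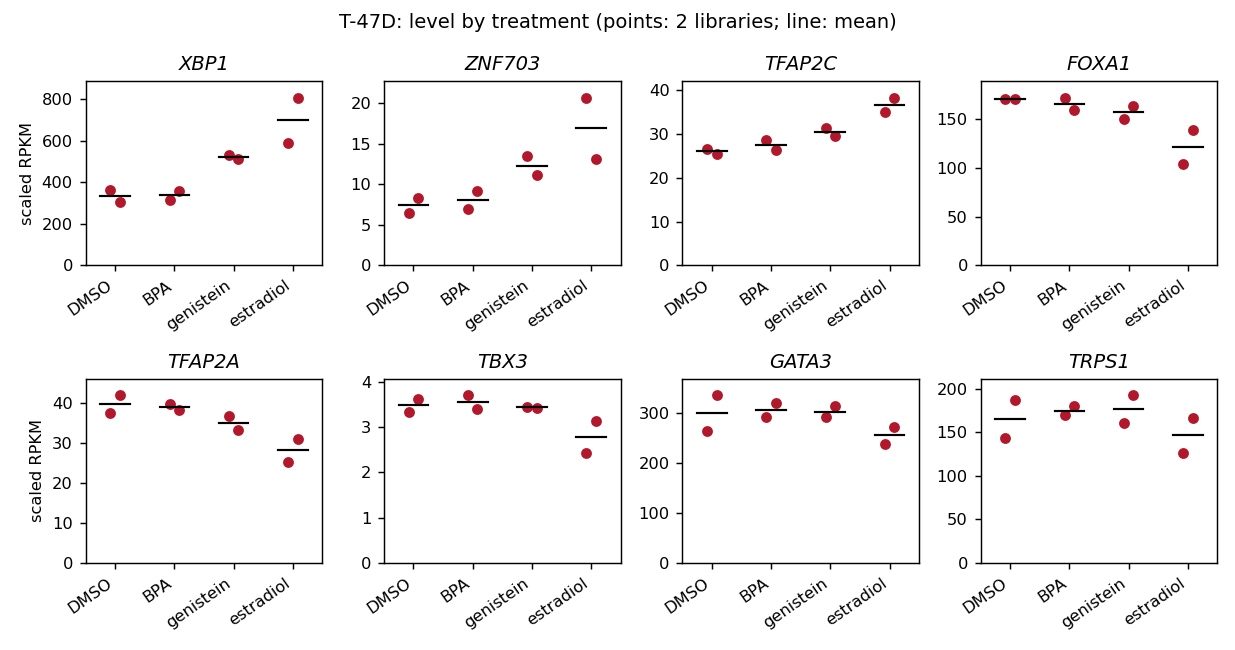
Scaled RPKM of the 8 tested genes in T-47D by treatment, with 1 point for each of 2 libraries and a line at their mean; each panel starts at 0 and has its own scale. XBP1 stands at 305.0 to 363.9 with DMSO, 509.6 to 532.4 with genistein and 587.1 to 805.5 with estradiol, while GATA3 and TRPS1 with each compound overlap with their DMSO libraries.

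With genistein at 100 nM, none of the 8 genes was called in T-47D by limma, against a background of 0.803% of tested genes, and 2 had an unadjusted p under 0.05. XBP1 stood at 532.4 and 509.6, above both controls and below both estradiol libraries (log2 difference from DMSO 0.64, 0.33 to 0.96, adjusted p = 0.0689). ZNF703 stood at 13.4 and 11.2, above both controls (0.70, 0.12 to 1.29, adjusted p = 0.570). The XBP1 difference was called in 2 of 15 alternatives, those without the first estradiol libraries (adjusted p = 0.00261) and with length and GC trends removed (adjusted p = 0.0126). Genistein and DMSO libraries did not overlap for 5 of the 8 genes, against 36.4% of all tested genes.

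The other members differed little with genistein. TFAP2C stood at 31.3 and 29.5 (log2 difference 0.22, -0.09 to 0.52), FOXA1 at 150.5 and 163.7 (-0.12, -0.40 to 0.16) and TFAP2A at 36.8 and 33.4 (-0.18, -0.48 to 0.12). Each of these 3 lay on the side of its controls where it also lay with estradiol, and the 2 comparisons share the same DMSO libraries. GATA3, TRPS1 and TBX3 overlapped with their controls, with differences of 0.03, 0.10 and -0.01.

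With BPA at 100 nM, none of the 8 genes was called in T-47D and none had an unadjusted p under 0.05, where limma called 0% of all tested genes. Every gene overlapped with its controls, against 20.6% of tested genes whose libraries did not. XBP1 stood at 315.8 and 359.1, both within the range of its controls (log2 difference 0.02, -0.30 to 0.33). ZNF703 stood at 6.91 and 9.13 (0.11, -0.48 to 0.69), and differences over the 8 genes ran from -0.04 to 0.11.

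BPA and genistein were given at the same concentration and time, so they were compared directly for the 8 genes in each line, with p-values adjusted over all tested genes. In T-47D, XBP1 was higher with genistein than with BPA in both libraries (log2 difference 0.63, 0.31 to 0.95, adjusted p = 0.132), and ZNF703 likewise (0.60, 0.01 to 1.18, adjusted p = 1). Neither was called, against a background of 0.405%, and the XBP1 difference was called without the first estradiol libraries (adjusted p = 0.00628). In ECC-1 no member was called (background 0.0434%), and the XBP1 interval ran from -0.36 to 0.28.

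In ECC-1 none of the 8 genes was called with any of the 3 compounds by limma, and none had an unadjusted p under 0.05. The background was 1.89% of tested genes with estradiol, 0.195% with BPA and 0.969% with genistein. XBP1 stood at 126.1 and 118.8 with DMSO, 109.3 and 124.0 with estradiol, 126.8 and 120.5 with BPA and 122.0 and 118.8 with genistein. These values overlap, with log2 differences of -0.07 (-0.39 to 0.25), 0.01 (-0.30 to 0.33) and -0.02 (-0.34 to 0.30). ZNF703 stood at 7.29 and 12.1 with DMSO and at 14.8 and 8.38 with estradiol, overlapping as well (0.23, -0.35 to 0.82).

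The remaining ECC-1 values were low and close together. FOXA1 stood at 3.11 and 3.01 with DMSO, 3.57 and 3.08 with estradiol, 2.94 and 3.06 with BPA and 2.86 and 2.93 with genistein. TFAP2C stood at 2.54 and 2.94 with DMSO and at 2.23 and 2.04 with BPA (log2 difference -0.30, -0.60 to 0.01), the member difference with the lowest unadjusted p in ECC-1, 0.0563. TRPS1 ran from 2.08 to 3.29 over the 8 libraries and TFAP2A from 0.719 to 0.980. The differences of GATA3, up to 0.37 with genistein, rest on the 2 libraries with 16.3 and 24.4 reads.

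**Figure D3:**
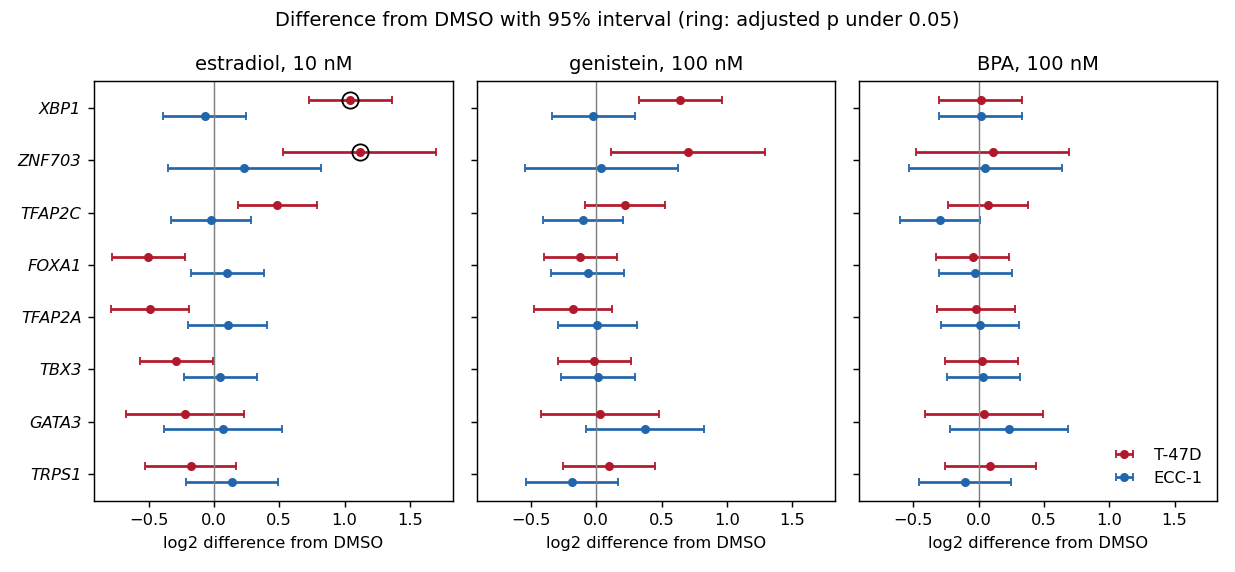
Log2 difference from DMSO with its 95% interval for the 8 tested genes in T-47D and ECC-1, with 1 panel for each compound; rings mark adjusted p under 0.05. Rings stand on XBP1 (1.04) and ZNF703 (1.12) with estradiol in T-47D, and every ECC-1 interval crosses 0.

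The third comparison asks whether a response differs between the lines, tested as the difference of the 2 log2 differences. XBP1 was the 1 member called, for estradiol, against a background of 1.73% of tested genes. Its response was 1.04 in T-47D and -0.07 in ECC-1, and these differed by 1.12 (0.66 to 1.57, SE 0.21, adjusted p = 0.0112). Both T-47D estradiol libraries lay above their controls, whereas in ECC-1 1 lay below and 1 between. Without the first estradiol libraries the difference was 1.25, and it was called in 15 of 18 alternatives. It missed the threshold with quantile normalization (0.88, adjusted p = 0.0591), without the first ECC-1 DMSO library (1.07, adjusted p = 0.0699) and without the second T-47D DMSO library (0.99, adjusted p = 0.0871).

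For the other members a difference between lines was not shown. The estradiol response of ZNF703 differed by 0.88 (0.05 to 1.71, adjusted p = 0.277), that of FOXA1 by -0.60 (-0.998 to -0.21, adjusted p = 0.134), that of TFAP2A by -0.60 (-1.02 to -0.17, adjusted p = 0.164) and that of TFAP2C by 0.51 (0.08 to 0.94, adjusted p = 0.234). Without the second estradiol library of T-47D the difference was -0.81 for FOXA1 and -0.74 for TFAP2A. Without the second estradiol library of ECC-1 it was -0.70 for FOXA1, and without both first estradiol libraries 0.79 for TFAP2C. The call of ZNF703 in T-47D and its absence in ECC-1 therefore do not show a difference between the lines. No member was called for BPA (background 0.0434%) or genistein (background 0.586%), where the XBP1 responses differed by 0.67 (0.22 to 1.12, adjusted p = 0.379).

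Genes of the unfolded protein response were set beside XBP1, since XBP1 protein drives many of them. All 17 genes of this list were tested, and none was called with any compound in either line. The background in T-47D was 3.22% of tested genes with estradiol, 0.803% with genistein and 0% with BPA. In ECC-1 it was 1.89%, 0.969% and 0.195%. The absence of calls is near this background and is no result about these genes. With estradiol in T-47D their median log2 difference was 0.10, against -0.01 over all tested genes. SDF2L1, an endoplasmic reticulum chaperone cofactor, had the widest difference, from 11.8 ± 0.29 to 18.5 ± 6.26 (0.59, 0.24 to 0.95, adjusted p = 0.0676). HSPA5, the main chaperone of the compartment, stood at 320.6 ± 9.57 with DMSO and 357.9 ± 10.0 with estradiol (0.16, -0.10 to 0.42). ERN1, whose protein splices the XBP1 mRNA, had means of 2.96 and 3.20 (0.10, -0.28 to 0.49), and the 2 XBP1 rows do not measure splicing.

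Between the lines, 6 of the 17 genes were higher in the T-47D controls and 7 were lower, a total of 13 beside a background of 76.7% of all tested genes called. That share is near the background and is no result about these genes. HSPA5 (320.6 against 180.5, log2 difference 0.83) and EDEM1, which serves degradation of misfolded proteins (11.8 against 4.19, 1.39), were higher. PDIA6, a disulfide isomerase (67.1 against 246.9, -1.87), SEC61B, a translocon subunit (21.2 against 75.1, -1.80), and ATF4, a stress-induced factor (103.5 against 439.0, -2.09), were lower.

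**Figure D4:**
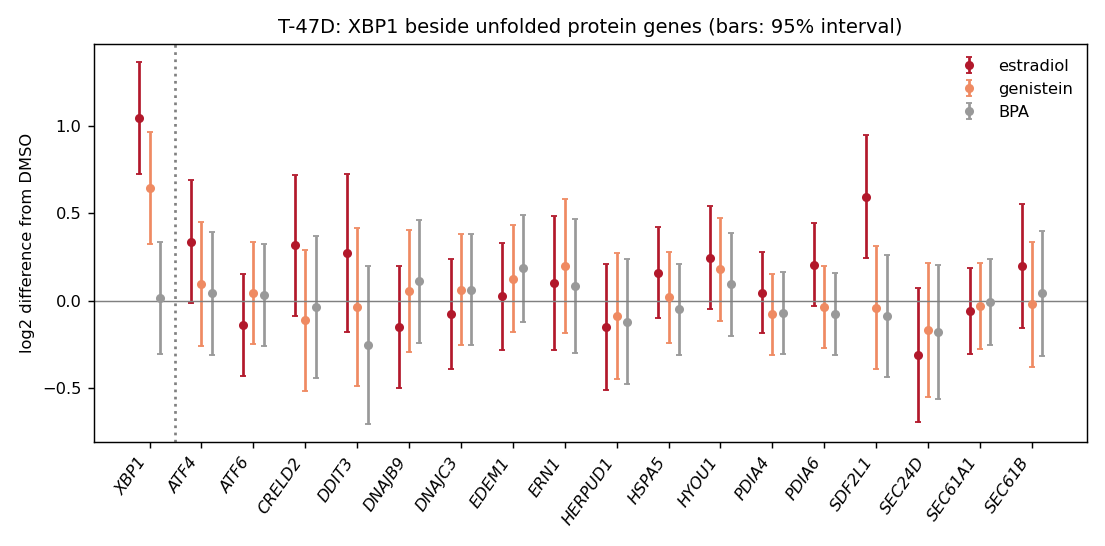
Log2 difference from DMSO in T-47D with its 95% interval for XBP1 (left of the dotted line) and the 17 unfolded protein genes, for each compound. XBP1 stands at 1.04 with estradiol and 0.64 with genistein, and among the 17 genes the widest rise is 0.59, for SDF2L1 with estradiol.

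Other genes of the luminal program and of the estrogen response give the scale of the member responses. Of 16 luminal breast markers, 5 rose with estradiol in T-47D (background 3.22% called) and none fell: CITED1 (log2 difference 1.76), MYB (1.66), AGR3 (1.57), PGR (1.09) and KRT19 (0.81). Without the first estradiol libraries 4 of these 5 were called, and KRT19 was not (0.52, adjusted p = 0.0521). With genistein 3 rose (background 0.803% called), MYB (1.35), PGR (1.13) and AGR3 (0.87), and with BPA none. In a set of 9 well-known estrogen target genes, 7 rose with estradiol and 7 with genistein in T-47D (background 3.22% and 0.803% called). The median differences over the set were 1.64 and 1.13. None of either list rose with BPA, where limma called 0% of all tested genes. PGR and ESR1 are in both lists. These lists were drawn up with earlier results of these data known, so their direction is not independent evidence.

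Among the family relatives, ZNF503 was the 1 gene called with estradiol in T-47D (background 3.22% called). It fell from 2.39 ± 0.29 to 1.28 ± 0.13 (log2 difference -0.70, -1.07 to -0.33, adjusted p = 0.0393), the opposite direction from its paralog ZNF703. Without the first estradiol libraries the difference was -0.78. With genistein ZNF503 stood at 1.74 ± 0.030 and with BPA at 2.13 ± 0.12, neither of which was called. None of the 7 tested relatives was called with any compound in ECC-1. The background there was 1.89% with estradiol, 0.195% with BPA and 0.969% with genistein.

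Genes with the pattern most like XBP1 and ZNF703 were found by Pearson correlation of log2 levels over the 8 T-47D libraries, among 12456 genes. For XBP1 these were RERG (r = 0.988), SERPINI1 (0.987) and RPL22L1 (0.985). RERG ran from 7.89 and 9.06 with DMSO to 12.6 and 17.6 with estradiol and 12.2 and 11.5 with genistein. For ZNF703 they were CBS (0.982), SYT12 (0.980) and B4GALT2 (0.980), and 208 genes in all lay above 0.9, against 167 for XBP1. SYT12 stood at 1.64 and 1.78 with DMSO and at 4.34 and 3.08 with estradiol, highest in the first estradiol library, as ZNF703 was. These libraries share the treatments, so the correlations are a description and carry no test.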

How the data were processed

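The authors deposited 1 table per library with an RPKM value for each of 32062 RefSeq transcripts. Reads were aligned with Bowtie to hg19 per the submitters' processing notes, with no version given, and the counting program and the treatment of multiply mapped reads are not given in the sources used here. Libraries were not directional per the labels' protocols, so antisense and overlapping genes cannot be told apart. Counts were recovered only approximately. RPKM of a transcript steps by what 1 read is worth, so low values and transcript lengths (GENCODE, matched by RefSeq accession) gave each library's depth. By these depths 60.4 to 63.2% of values below 10 reads fell no more than 0.1 from whole reads (20% if spread evenly). Counting error only is covered by intervals on reads.

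For each of the 21453 symbols the row with the highest mean was kept (5983 had several). Libraries were divided by median-ratio factors over 7547 genes (0.938 to 1.054). Genes that reached 1 RPKM in 2 or more libraries (13827) were fitted in limma 3.58.1 (R 4.3.3) on log2(scaled RPKM + 0.5), with 8 group means, empirical Bayes moderation and a mean-variance trend (8 residual and 6.9 prior degrees of freedom). The 12 contrasts were each adjusted by Benjamini-Hochberg over all tested genes at 0.05. The fit was tested on simulated data. With 2 libraries a group no permutation test of a single gene can reach the threshold.

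The members and lists were chosen with earlier results of these data known. All 10 members are named whatever their values; of the other lists, up to 4 called members with the widest differences per contrast, paralogs set beside a member, and the 3 genes most correlated with a called member. SDF2L1, HSPA5, ERN1, KRT19, ESR1 and COL1A1 were named after their values were seen. Alternatives covered scaling, pseudocount, filter, transcript rows, the replicate block, fits on 1 line and left-out libraries; those without both first estradiol libraries and with length and GC trends removed were chosen after seeing the data.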

Additional observations from a re-analysis of the deposited data

Results flagged for a closer look

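The estradiol response of XBP1 differed between the lines by the test of the difference itself: the log2 difference of responses was 1.12 (95% interval 0.66 to 1.57, limma adjusted p = 0.0112). XBP1 stood at 334.4 ± 41.6 with DMSO and 696.3 ± 154 with estradiol in T-47D, higher in 2 of 2 libraries, and at 122.4 ± 5.16 and 116.7 ± 10.3 in ECC-1. It was called in 15 of 18 alternatives, some of which leave 1 library in a group, and missed the threshold in the others. No group has 4 or more libraries, so single libraries were not tested for standing apart from their group.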

How the results depend on the processing

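Of 96 differences of single genes followed over 1492 alternatives, 83 kept their side of the threshold in every alternative run. Sign changed in some alternative for 44 of the 96, none of them called in any fit, and the 10 called differences kept theirs. With estradiol in T-47D, where 2 of the 8 tested genes were called, 4 were called with a pseudocount of 1, 1 with no filter on low values, 1 with the replicate block, 0 in the fit on T-47D alone, 5 with length and GC trends removed, and 1 to 5 when 1 library was left out (1 without the first DMSO or first estradiol library, 5 without the second estradiol library). The difference of responses to estradiol, called for 1 gene, was called for 0 with quantile normalization, for 2 without both first estradiol libraries and for 0 to 3 with 1 library left out. With genistein in T-47D, and in genistein against BPA there, 0 became 1 (XBP1) without both first estradiol libraries and with those trends removed, and in the genistein difference of responses 0 became 1 without the former. Without both first estradiol libraries the genistein difference of XBP1 in T-47D stayed at 0.64, and its SE went from 0.15 to 0.095. Neither estradiol library enters that difference, but both enter the spread that all groups share. Fits that leave libraries out hold fewer samples, and the cause of the changes in calls was not tested. Same-numbered libraries deviated together at r = -0.22 to 0.41 across genes, so the replicate number was not taken to pair them. The count of all genes called with estradiol in T-47D moved from 445 to between 127 and 3131. Depth limits TOX3 and TFAP2B in both lines and GATA3 and TBX3 in ECC-1.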

Other observations

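Other lists add genes that the account above leaves out. Of 10 Mullerian and endometrial epithelium markers, 9 were tested and all 9 were called between the control libraries. In T-47D 8 were lower and 1 was higher, against a background of 76.7% of all tested genes called in either direction (39.6% higher). MSX2, a homeobox gene, was the exception, at 51.3 ± 2.48 in T-47D and listed at 0 in both ECC-1 controls, whereas its paralog MSX1 had control means of 0.518 (T-47D) and 189.1 (ECC-1) (log2 difference -7.54, adjusted p = 3.98e-16). MSX2 fell with estradiol in T-47D to 33.0 ± 1.65 (log2 difference -0.63, SE 0.12, adjusted p = 0.00606), and the difference was -0.58 without the first estradiol libraries. With genistein it stood at 39.3 ± 1.24 and with BPA at 50.3 ± 2.51, neither called.

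In ECC-1 none of the 8 tested members was called with a compound, and 2 of 16 luminal markers rose from low levels. The background was 1.89% of tested genes with estradiol, 0.195% with BPA and 0.969% with genistein. MLPH, a melanosome transport gene, stood at 0.202 ± 0.022 with DMSO and rose to 1.58 ± 0.027 with estradiol, 1.14 ± 0.57 with BPA and 2.03 ± 0.11 with genistein (adjusted p = 0.000152, 0.00794 and 2.93e-05). PGR, the progesterone receptor gene, rose from 0.0710 ± 0.033 to 0.774 ± 0.0093 with estradiol and 0.520 ± 0.018 with genistein (adjusted p = 0.00226 and 0.0424). Without the first estradiol libraries the log2 differences with estradiol were 1.58 for MLPH and 1.15 for PGR. In T-47D, MLPH stood at 37.5 ± 2.49 with DMSO and was not called with any compound.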
